A study of Mus musculus with 6 samples.

Results

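Scinderin (*Scin*) and 5 further genes of the gelsolin family, *Gsn*, *Capg*, *Svil*, *Flii* and *Vill*, were described in RNA of mouse cultures that the study names endothelial cells. The cultures came from the stria vascularis, the vascularized epithelium of the cochlear lateral wall, dissected together with the spiral ligament. The members were found by gene symbol, and all 6 of 6 were present among the 24421 genes of the deposited count table. They were chosen by measured values of the same genotype contrast that is described here, and *Scin* is also among the genes that the study picked on these libraries. Their differences between genotypes are therefore given as a description without a test.

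The cultures were *Nhe6*-knockout, from mice of a line with a targeted gene disruption, or wildtype, and neither genotype received a treatment. Mice were 10 to 12 days old, and the labels give the strain background as C57BL/6N for both genotypes while the methods describe a C57bl6/j line. Each of the 6 libraries, 3 per genotype, came from 1 culture pooled from at least 6 mice. Cells were purified by flow sorting and then grown in endothelial medium, so the values belong to cultured cells. Nothing in the labels says whether cultures of 1 genotype were set up on separate days, and any p-value measures the spread between these cultures alone.

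Proteins of the gelsolin family bind actin through repeated gelsolin domains, and most of them respond to calcium. Gelsolin and scinderin, also called adseverin, cut actin filaments and cap the fast-growing end, and scinderin is known for cutting the cortical actin of secretory cells before exocytosis. CAPG caps filaments without cutting them, supervillin ties actin and myosin II to the membrane, FLII carries leucine-rich repeats and also acts with nuclear receptors, and VILL is a relative of villin, the bundling protein of microvilli. In endothelial cells, the cortical actin ring carries the adherens junctions, which makes filament turnover part of barrier upkeep.

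The sequence upstream of the start site is shown for *Scin*, which had the largest genotype difference, and for *Vill*, *Flii* and *Gsn*, which were highest in the same wildtype culture. Each line holds the 250 bases before a RefSeq start site on GRCm38.p6, written 5′ to 3′ on the gene's own strand. Capitals mark a GC box, GGGCGG or its complement CCGCCC on the other strand, a motif bound by Sp1. For *Gsn* all 3 start sites are given, because a gene count adds them together.
Scin, chr12:40134229-40134478, minus strand: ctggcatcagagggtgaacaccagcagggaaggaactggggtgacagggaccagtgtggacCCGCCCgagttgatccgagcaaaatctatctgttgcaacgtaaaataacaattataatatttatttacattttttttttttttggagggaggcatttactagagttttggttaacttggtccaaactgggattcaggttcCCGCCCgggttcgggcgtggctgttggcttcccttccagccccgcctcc
Vill, chr9:119052528-119052777, plus strand: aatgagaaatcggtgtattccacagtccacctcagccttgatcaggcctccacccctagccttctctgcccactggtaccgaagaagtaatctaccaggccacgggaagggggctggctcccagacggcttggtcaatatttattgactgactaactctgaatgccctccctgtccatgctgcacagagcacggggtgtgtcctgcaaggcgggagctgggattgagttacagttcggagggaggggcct
Flii, chr11:60727264-60727513, minus strand: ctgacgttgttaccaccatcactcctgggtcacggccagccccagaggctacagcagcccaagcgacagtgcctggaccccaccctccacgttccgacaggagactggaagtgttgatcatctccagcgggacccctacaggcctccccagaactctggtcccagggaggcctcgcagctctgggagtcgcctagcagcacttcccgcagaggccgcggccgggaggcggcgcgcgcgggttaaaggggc
Gsn start site 1, chr2:35256109-35256358, plus strand: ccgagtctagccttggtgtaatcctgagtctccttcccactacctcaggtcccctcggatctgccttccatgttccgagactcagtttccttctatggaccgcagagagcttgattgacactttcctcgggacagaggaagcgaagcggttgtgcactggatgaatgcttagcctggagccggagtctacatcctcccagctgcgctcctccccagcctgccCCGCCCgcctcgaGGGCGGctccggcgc
Gsn start site 2, chr2:35266494-35266743, plus strand: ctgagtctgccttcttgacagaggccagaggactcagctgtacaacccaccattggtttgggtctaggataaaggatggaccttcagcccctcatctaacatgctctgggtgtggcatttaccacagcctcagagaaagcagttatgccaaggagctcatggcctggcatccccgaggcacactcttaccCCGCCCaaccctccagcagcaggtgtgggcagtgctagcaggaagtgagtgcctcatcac
Gsn start site 3, chr2:35282130-35282379, plus strand: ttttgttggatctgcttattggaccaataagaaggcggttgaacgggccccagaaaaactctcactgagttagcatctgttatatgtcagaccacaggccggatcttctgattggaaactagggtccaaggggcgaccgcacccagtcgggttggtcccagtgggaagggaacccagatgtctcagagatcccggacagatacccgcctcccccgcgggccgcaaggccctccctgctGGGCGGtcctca

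*Scin* held 2 GC boxes, from 189 to 184 and from 49 to 44 bases before the start. The 3 start sites of *Gsn* held 2, 1 and 1. *Vill*, *Flii* and *Capg* held none in this window. A GC box was present in 32.7% of all 32851 promoters of this length, so its presence is common. The CArG box (CC, 6 bases of A or T, GG) that serum response factor binds in many actin genes was present in 1.47% of promoters, TATAAA in 12.4% and the AP-1 site TGANTCA in 6.75%, each searched on both strands. None of these 3 was found in the windows of the 5 members with an entry. A match is only a match of letters.

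The libraries held from 25587097 to 29126232 reads in genes, and 13479 genes passed the filter on low counts. Normalized counts are reads rescaled by TMM to the average library, and a negative log2 fold change means a lower level in the knockout. Wildtype replicate 2 was separated from the remaining 5 libraries along principal component 1 (106 against -28.5 to -6.52), which held 50.2% of the variance. Of 12 endothelial markers 6 averaged 100 or more normalized counts in at least 1 genotype, *Emcn*, *Eng* and *Cdh5* among them. *Cldn5* had no read in any culture and *Pecam1* at most 8, and *Tie1*, *Vwf* and *Erg* also failed the filter on low counts. All 10 fibroblast markers averaged 100 or more normalized counts. *Nhe6*-knockout replicates 1 and 2 were closer to each other than any other pair of replicates (chi-square per gene of 4.89 against 89.6 to 397), although still above sampling noise, and were kept as separate cultures.

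*Scin*, which severs and caps filaments, was the member with the largest genotype difference and with the fewest reads. Normalized counts of *Scin* reached 5.31, 8.36 and 16.1 in the knockout cultures and 104, 65.0 and 258 in wildtype cultures. All 3 knockout cultures lay below all 3 wildtype cultures, with means of 9.92 ± 5.56 and 142 ± 102 (SD, n = 3). The log2 fold change was -3.82 (SE 0.71), the 28th lowest of the 13479 genes tested. The knockout values rested on 5, 9 and 17 reads, against 106, 63 and 241 in wildtype. Leaving out wildtype replicate 3, the culture with the highest level, left -3.07 (SE 0.58).

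The gene spans chr12:40059769-40134228 on the minus strand, with 16 exon blocks in the annotation. Neither tested neighbour passed the threshold in edgeR. *Arl4a*, a small GTPase of the ARF family, had a log2 fold change of -0.55 (adjusted p = 0.291), and *Ifrd1*, a transcriptional coregulator, one of -0.43 (adjusted p = 0.276). In both genes every knockout culture lay below every wildtype culture, as it did in 9.57% of all genes tested.

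Some markers of another cell type moved with *Scin* in 1 culture. Melanocytes are resident in the stria vascularis, and 4 pigment genes were at most 1 read in every knockout culture. In wildtype replicate 3, where *Scin* was highest, *Tyrp1* had 271 reads, *Dct* 166, *Mlana* 31 and *Tyr* 23. In wildtype replicate 1, where *Scin* had 106 reads, *Tyrp1* had 1 read and *Dct*, *Mlana* and *Tyr* had none. Of the remaining melanocyte markers, *Pmel* and *Kit* were also highest in wildtype replicate 3, at 157 and 28.9 normalized counts. *Mitf* and *Sox10* were not, with 435 and 24.6 there against 727 and 40.1 in wildtype replicate 1. The summed level of the 8 melanocyte markers ran from 405 to 710 normalized counts in knockout cultures. It was 850, 288 and 1171 in wildtype replicates 1, 2 and 3. *Mitf* was the largest part of that sum in every culture. In bulk RNA, fewer cells of a type and less RNA per cell cannot be told apart. The part of these cells in the level of *Scin* was not tested.

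**Figure D1:**
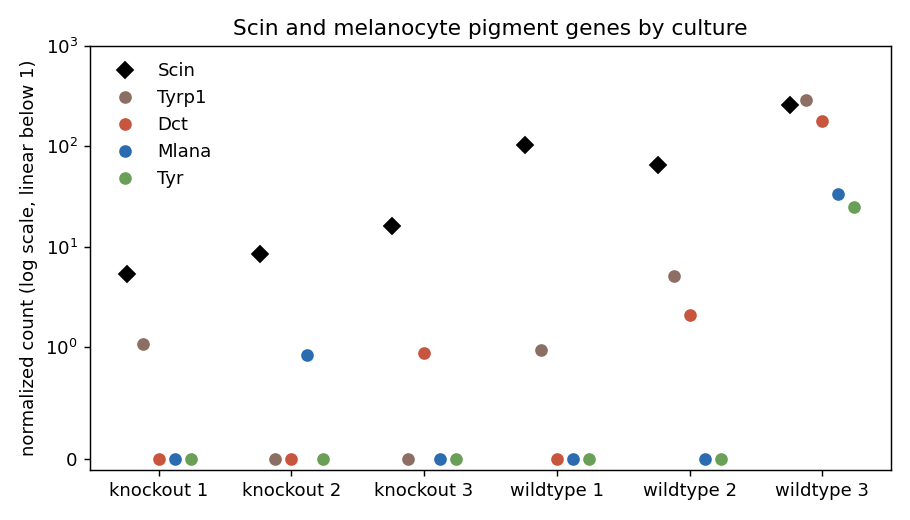
Normalized counts of *Scin* (diamonds) and of the pigment genes *Tyrp1*, *Dct*, *Mlana* and *Tyr* (circles) in each culture, on an axis that is logarithmic above 1 and linear below it. The pigment genes rise above 5.16 in wildtype replicate 3 alone, while *Scin* lies between 65.0 and 258 in all 3 wildtype cultures.

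*Gsn*, the founding member, supplied most of the family's reads. Its normalized counts were 46114, 49181 and 43201 in knockout cultures and 72897, 119694 and 39258 in wildtype cultures. The wildtype cultures lay on both sides of the knockout cultures, since wildtype replicate 3 was the lowest of all 6. The knockout cultures were close together, with 46165 ± 2991 against 77283 ± 40397 (SD, n = 3) in wildtype. The log2 fold change was -0.74 (SE 0.41) and came to -0.28 without wildtype replicate 2. *Gsn* held from 75.0% to 89.4% of the normalized counts of the 6 members, depending on the culture. It spans chr2:35256380-35307892 on the plus strand, with 7 annotated transcripts whose counts are pooled, and the unconfirmed locus *Gm43128* lies inside it on the same strand.

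*Capg*, which caps filaments without severing them, was the other member whose genotypes did not overlap. Its normalized counts were 2036, 2131 and 1675 in knockout cultures and 3562, 2633 and 2391 in wildtype cultures. The highest knockout culture lay below the lowest wildtype culture by a small margin. The log2 fold change was -0.56 (SE 0.19) and ran from -0.68 to -0.37 when each culture was left out in turn. *Capg* spans chr6:72544391-72562983 on the plus strand.

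*Flii*, the leucine-rich repeat member, had normalized counts of 3399, 3816 and 3917 in knockout cultures and of 4198, 5684 and 3685 in wildtype cultures. Wildtype replicate 3 lay among the knockout cultures, and the log2 fold change was -0.29 (SE 0.19). Without wildtype replicate 2, the highest culture, it was -0.09. *Flii* spans chr11:60714123-60727263 on the minus strand and shares 64 bases with *Llgl1* on the opposite strand. The kit marks strand, but the strand setting of the counting is not given in the sources used here, so reads in those 64 bases may be split between both genes.

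*Vill*, the villin relative, had normalized counts of 49.9, 91.0 and 44.5 in knockout cultures and of 113, 917 and 72.7 in wildtype cultures. Wildtype replicate 2 held 9.85 times the mean of the other wildtype cultures, and wildtype replicate 3 lay within the knockout range. The log2 fold change of -2.57 (SE 1.02) rested on that culture, because it was -0.59 (SE 0.41) without it. *Vill* spans chr9:119052778-119071525 on the plus strand, and *Plcd1*, a phospholipase C, lies on the opposite strand with its 3′ end 2 bases past the end of *Vill*. *Plcd1* had normalized counts of 739, 840 and 829 in knockout cultures and of 890, 1123 and 632 in wildtype cultures, and *Ctdspl*, on the other side of *Vill*, had 1644 in wildtype replicate 2 where replicates 1 and 3 had 569 and 602.

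*Gsn*, *Flii* and *Vill* were all highest in wildtype replicate 2. That culture was the highest of the 6 for 26.8% of all genes tested, so a peak there is frequent. *Scin* and *Svil* were highest in wildtype replicate 3 and *Capg* in wildtype replicate 1. No member was highest in a knockout culture, and a peak in a wildtype culture adds to the contrast on which the members were chosen. Markers of other cell types also differed in wildtype replicate 2, but not as whole lists, apart from the macrophage and epithelial ones. The summed level of 10 mural cell markers was 35231 in wildtype replicate 2 against 16261 and 18437 in wildtype replicates 1 and 3 and 22079 to 24337 in knockout cultures. That sum rose through *Acta2* (16267 normalized counts against 29.3 and 70.6), *Tagln* (5337 against 74.3 and 350) and *Cspg4* (4407 against 634 and 385). In the same list 5 of 10 genes were lowest there among wildtype cultures, with *Pdgfrb* at 7790 against 14678 and 16708. The sum of 12 endothelial markers was 10881 there against 22147 and 22544, mainly through *Emcn* (409 against 13407 and 14723) and *Eng* (866 against 4789 and 2721). Of those 12 genes 5 were lowest and 5 highest there among wildtype cultures, the latter including *Cdh5* (5198 against 2508 and 3468) and *Flt1* (3174 against 920 and 1150). The 10 fibroblast markers summed to 298631 against 225659 and 180119, and 5 were highest and 5 lowest there, with *Col1a1* at 27174 against 207 and 213 and *Pdgfra* at 10083 against 19046 and 18828. Of 14 macrophage markers 13 were lowest there, with a sum of 147 against 3802 and 1992. Of 8 epithelial markers 7 were lowest there, with a sum of 86.6 against 1212 and 541. The part of these cell types in the 3 genes was not tested.

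*Svil*, the membrane-linked member, had nearly equal mean levels, 5567 ± 658 in knockout and 5578 ± 956 in wildtype cultures (SD, n = 3). Its normalized counts were 5891, 6000 and 4810 in knockout cultures and 5207, 4863 and 6665 in wildtype cultures. The ranges overlapped, and wildtype replicate 3 lay above the highest knockout culture. The log2 fold change was -0.00 (SE 0.17) and ran from -0.10 to 0.14 when each culture was left out, so the interval of 1 SE holds small differences of either sign.

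**Figure D2:**
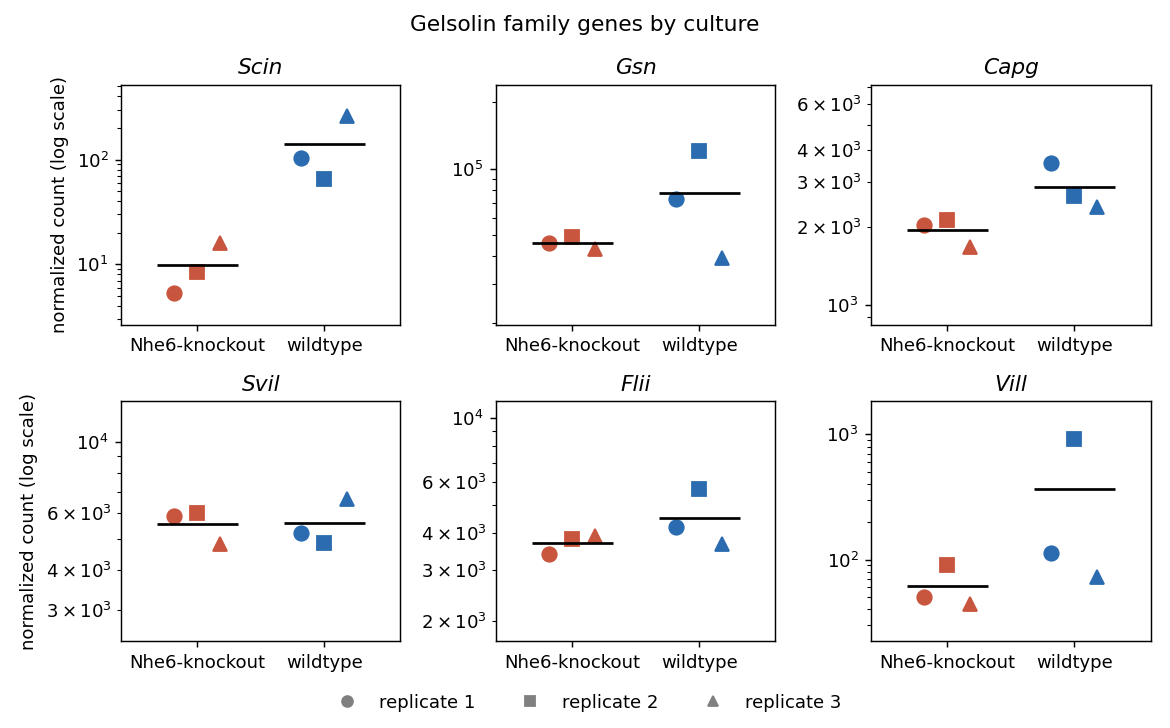
Normalized counts of each member on its own logarithmic axis, with red markers for *Nhe6*-knockout and blue markers for wildtype cultures, a marker shape for each replicate number and a black line at the mean. The genotypes separate for *Scin* and *Capg*, and wildtype replicate 2 is the highest point for *Gsn*, *Flii* and *Vill*.

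All 6 members passed the filter and all 6 log2 fold changes were below 0, that of *Svil* by less than 0.01. No member passed an adjusted p of 0.05 in edgeR, where 9 genes of 13479 (0.0668%) did, 5 of them (0.0371%) lower in the knockout. At an unadjusted p under 0.05 the count was 3 members, against 11.8% of all genes. *Scin* alone passed with the Wald test of DESeq2, which called 4.65% of genes, 1.82% as lower. It also passed in edgeR without wildtype replicate 2, where 1.26% of genes were called lower and 1.62% higher. Limma-voom called no member. Neither did edgeR with the other normalizations or filters, with a replicate block or with any other single culture left out. The same held with *Nhe6*-knockout replicates 1 and 2 summed. Non-overlapping genotypes were seen for 2 members, both lower in the knockout, against 9.57% of genes in that direction and 10.3% in the other. Because the members were chosen with this contrast known, nothing is read from these counts.

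**Figure D3:**
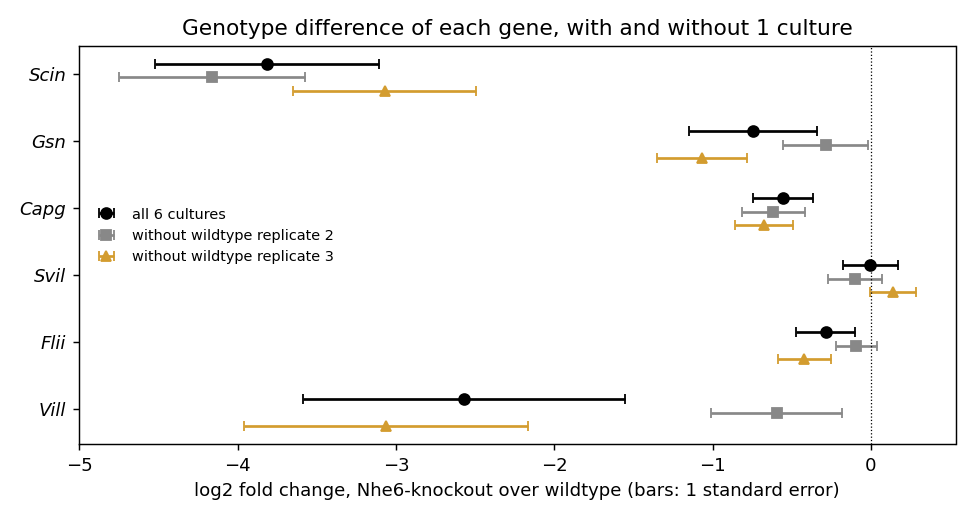
Log2 fold change of each member (*Nhe6*-knockout over wildtype, bars of 1 SE) with all 6 cultures (circles), without wildtype replicate 2 (squares) and without wildtype replicate 3 (triangles). *Vill* moves from -2.57 to -0.59 without wildtype replicate 2, while *Scin* stays between -4.16 and -3.07.

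Per kilobase of exon, the members fell into 3 tiers. *Gsn* was the most abundant by far, with 14623 ± 947 normalized counts per kilobase in knockout and 24480 ± 12796 in wildtype cultures (SD, n = 3). *Capg* (770 ± 95.2 and 1132 ± 244), *Flii* (736 ± 54.5 and 898 ± 206) and *Svil* (520 ± 61.5 and 521 ± 89.4) formed the middle tier. Over all 6 cultures the ranges of *Capg* and *Flii* overlapped, whereas the highest level of *Svil* (623) lay below the lowest of *Capg* (662) and of *Flii* (675). With the longest transcript as length, the highest level of *Svil* (843) passed the lowest of *Flii* (837). *Vill* (14.0 ± 5.78 and 83.4 ± 108) and *Scin* (3.31 ± 1.85 and 47.4 ± 34.0) were lowest. In wildtype cultures the ranges of *Vill* and *Scin* overlapped, and in knockout cultures every value of *Vill* was above every value of *Scin*. Their order over all cultures depended on 1 culture, with means of 48.7 for *Vill* and 25.3 for *Scin*, but 16.9 and 26.1 without wildtype replicate 2. Without wildtype replicate 3 the mean of *Scin* was 13.2. Of the villin-type genes outside the members, *Avil* (advillin) had 99.8, 121 and 92.7 normalized counts in knockout and 167, 70.1 and 89.8 in wildtype cultures (log2 fold change -0.06, SE 0.38, edgeR adjusted p = 0.963), and *Vil1* had at most 4 reads in any culture.

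**Figure D4:**
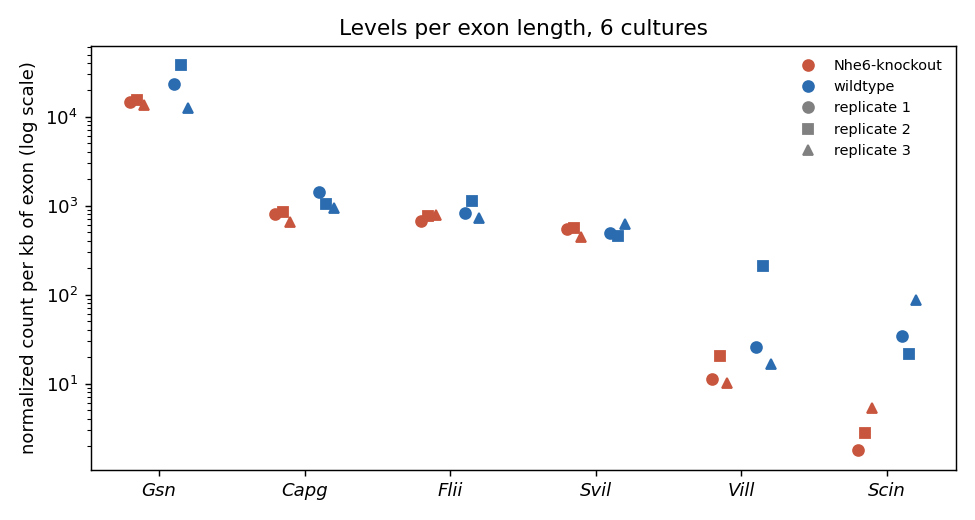
Normalized count per kilobase of exon (union of all exons of a gene) of each member in every culture, on a logarithmic axis, ordered by the mean over 6 cultures. *Gsn* lies at 12435 or above in every culture, and *Scin* lies at 5.36 or below in every *Nhe6*-knockout culture.

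The genes whose level followed *Scin* most closely over the 6 cultures were *Foxred2* (Pearson r = 0.999), *Snw1* (0.996), *Usp48* (0.996), *Fam32a* (0.994) and *Cebpz* (0.993), of 11374 genes compared on log2 library-scaled counts. *Foxred2* encodes a protein of endoplasmic reticulum quality control, *Snw1* a splicing and transcription cofactor and *Usp48* a deubiquitinase. Their changes were far smaller than that of *Scin*, with log2 fold changes from -0.52 for *Foxred2* to -0.16 for *Usp48*. None of the 5 passed the threshold in edgeR, and their adjusted p ran from 0.187 to 0.601. The smallest r with any 1 culture left out was 0.989, for *Cebpz*. The 6 points share genotype and libraries, and these are the 5 highest values of all genes compared, given as a description.

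The wider actin machinery was described with 8 lists of 117 genes, of which 114 were in the table and 107 were tested; the formins *Diaph1*, *Diaph2* and *Diaph3* were not analysed here. No gene of the lists passed the threshold in edgeR or limma-voom. At an unadjusted p under 0.05 there were 7 lower and 4 higher genes, 10.3% of those tested against 11.8% of all genes. Of the 107, 56 were lower and 51 higher, with a median log2 fold change of -0.03 against -0.02 over all genes. DESeq2 called 5 of them, *Cobl* and *Eps8l2* lower and *Cap2*, *Fscn1* and *Mical3* higher, 4.67% against 4.65% of all genes. Without wildtype replicate 2, edgeR called 6, all higher, with *Cap2* and *Mical3* among them, 5.61% against 1.62%. *Cap2* is outside the naming rule and was named after its values were seen.

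The end-capping list, in which not every gene closes a filament end itself, included genes that separated the genotypes in 1 direction. Of 14 tested, 5 had all knockout cultures below all wildtype cultures (35.7% against 9.57% of all genes) and none the reverse. They were *Add1* and *Add3*, adducins of the membrane skeleton, *Capzb*, the beta subunit of capping protein, *Eps8l2* and *Lmod1*, and naming all of them was decided after their values were seen. This list had the largest share of wholly lower genes among the 8 lists. Over the 107 tested genes of the 8 lists together, 7.48% lay wholly lower and 7.48% wholly higher. The shares of all genes were 9.57% and 10.3%. Without wildtype replicate 2, an alternative added after seeing the data, 6 of the 14 end-capping genes lay lower, against 19.1% of all genes, and 1 higher. *Lmod1*, a leiomodin, had normalized counts of 87.1, 111 and 167 in knockout and 316, 172 and 288 in wildtype cultures (log2 fold change -1.09, edgeR adjusted p = 0.301). *Eps8l2* had 42.5, 46.4 and 35.0 against 103, 576 and 50.3 (log2 fold change -2.55, adjusted p = 0.351), with wildtype replicate 2 again the highest, and its log2 fold change was -0.89 without that culture.

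With all 6 cultures, the share of the severing and monomer-binding list that lay wholly higher in the knockout was close to that of all genes. Of 25 tested genes 3 had all knockout cultures above all wildtype cultures, 12.0% against 10.3% of all genes. They were *Cap2*, *Coro1a* and *Mical3*, named after their values were seen except for *Mical3*. None had the reverse, against 9.57% of all genes. Without wildtype replicate 2 the higher share was not close, at 9 of 25 (36%) against 19.3% of all genes. None lay lower there, against 19.1% of all genes. This recount was added after seeing the data, for this list and the end-capping list alone. It was not made with any other culture left out. *Mical3*, an oxidase of actin, had 1747, 1806 and 1673 normalized counts in knockout and 1165, 1150 and 1054 in wildtype cultures (log2 fold change 0.63, edgeR adjusted p = 0.0983). *Cap2*, which recycles cofilin-bound actin, had 92.4, 63.2 and 61.5 against 12.7, 9.28 and 17.1 (log2 fold change 2.46, adjusted p = 0.0952).

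Bundling, nucleating and membrane-linking genes gave single values in both directions. *Fscn1* (fascin, a bundling protein) had 1850, 2035 and 2817 normalized counts in knockout and 1284, 1166 and 1215 in wildtype cultures (log2 fold change 0.87, edgeR adjusted p = 0.123). *Cobl*, a nucleator, had 438, 450 and 273 against 623, 2305 and 1058 (log2 fold change -1.78, adjusted p = 0.242, and -1.12 without wildtype replicate 2). Its relative *Cobll1* had 1056, 1039 and 1111 against 620, 675 and 955 (log2 fold change 0.51, adjusted p = 0.367). *Enah*, a filament elongation factor at adhesions, had a log2 fold change of 0.68 (adjusted p = 0.446), which was 0.39 without wildtype replicate 2, and *Rdx* (radixin, a membrane linker) one of -0.25 (adjusted p = 0.542). The 4 tested actin isoforms, given outside the naming rule, all had overlapping genotypes. Their log2 fold changes were -0.33 for *Actb* (edgeR adjusted p = 0.694), -0.56 for *Actg1* (0.455), -0.09 for *Actg2* (0.982) and -3.14 for *Acta2* (0.636). *Acta2* had 16267 normalized counts in wildtype replicate 2 and 29.3 and 70.6 in wildtype replicates 1 and 3. Of the tropomyosins that bind along filaments none had genotypes without overlap.

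**Figure D5:**
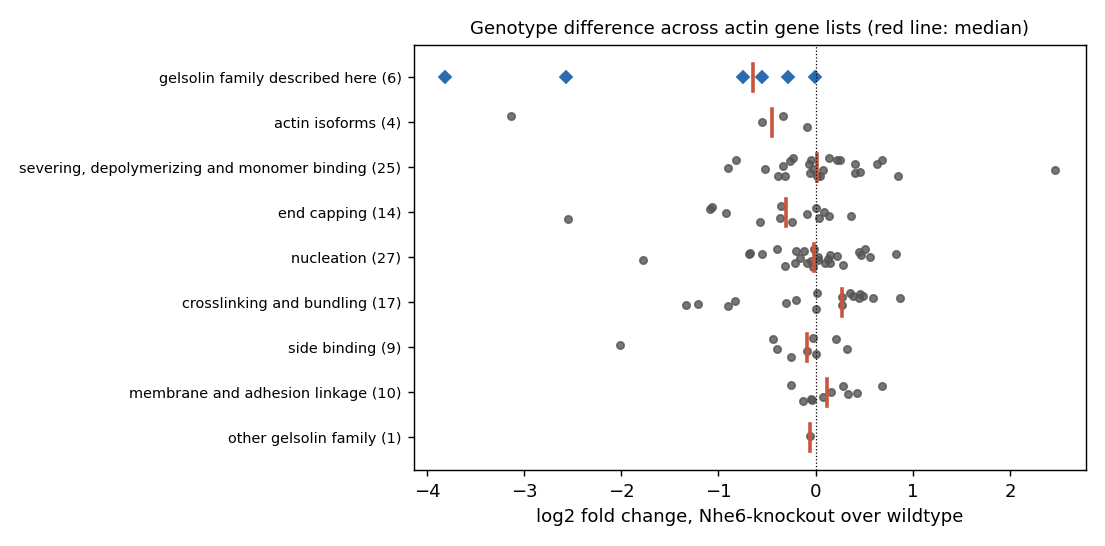
Log2 fold change (*Nhe6*-knockout over wildtype) of each tested gene of 8 actin gene lists (grey circles, number of genes in brackets) and of the 6 members (blue diamonds), with a red line at each median. Every list except the actin isoforms and the single other family gene has values on both sides of 0, and *Scin* at -3.82 lies below every gene of the 8 lists.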

How the data were processed

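RNA of 6 primary cultures was sequenced from poly(A)-enriched stranded libraries with 75 cycles. Per the submitters' processing notes, the tools were bcl2fastq 2.20.0.422, STAR 2.7.7a, HTSeq 0.13.5 and DESeq2 1.26.0 with mm10. The authors deposited raw counts of reads per gene symbol, without normalization, for 24421 genes. Lines not assigned to a named gene held 22.2% of the reads and were left out. The strand setting of the counting is not given in the sources used here.

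Genes were filtered with filterByExpr (minimum count 10), normalized with TMM (factors 0.976 to 1.03) and fitted in edgeR 4.0.16 (R 4.3.3) with the two-sided quasi-likelihood test, genotype alone, 6 libraries in 1 fit, and Benjamini-Hochberg adjustment over 13479 genes at 0.05. Standard errors are the log2 fold change divided by the root of F. Alternatives were other normalizations and filters, DESeq2 1.42.0, limma-voom (limma 3.58.1), a replicate block, leaving out each culture, and, chosen after seeing the data, *Nhe6*-knockout replicates 1 and 2 summed. In simulated counts of this comparison with 13300 genes and 200 changed by 2 on the log2 scale, edgeR recovered 170 with 10 wrong calls, DESeq2 196 with 73. The changed genes were drawn from those at higher levels, and noise was independent between genes. Recovery of a gene as low as *Scin*, or with a culture as distant as wildtype replicate 2, was not simulated.

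The members and lists were chosen with earlier results of these data known. Named are the 6 members, the 5 genes most correlated with *Scin* (log2 library-scaled counts, prior count 2, mean of at least 100 in 1 genotype), and, per actin list, up to 3 genes past the threshold or, with none, up to 2 with the largest non-overlapping change at that mean. Further names are said to be chosen later, and some genes are not reported here. Positions are from GENCODE M21 on GRCm38 and promoters from RefSeq, in which 5 of 6 members matched.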

Additional observations from a re-analysis of the deposited data

How the results depend on the processing

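The count of 9 genes past the threshold was 21 without a filter, 21 with at least 10 counts in every library, 627 with DESeq2, 1 with *Nhe6*-knockout replicates 1 and 2 summed, and 0 to 395 when each culture was left out, 395 without wildtype replicate 2 and 0 without *Nhe6*-knockout replicate 3. With a replicate block it was 2. Correlations of the deviations of same-numbered cultures were 0.21, -0.19 and 0.11. Whether the replicate numbers pair the cultures cannot be told from so few values. The count of actin genes was 5 with DESeq2 and 0 to 6 when each culture was left out, 6 without wildtype replicate 2. The log2 fold change of *Vill* ran from -3.06 to -0.59 when each culture was left out, the latter without wildtype replicate 2. *Scin* ran from -4.35 to -3.07 over 13 alternatives and could not be fitted with at least 10 counts in every library, and *Gsn*, *Capg* and *Flii* stayed below 0 in 14 of 14 alternatives, *Svil* in 8. The number of members without overlap ran from 2 to 5, with 5 without wildtype replicate 3. Non-overlap is more frequent with fewer cultures, and the share of all genes without wildtype replicate 3 was not computed. Without wildtype replicate 2, where the number was 2, 19.1% of all genes lay wholly lower and 19.3% wholly higher. Nothing is read from these numbers, since the members were chosen with this contrast known. With the longest transcript as length, the levels per kilobase were 1718 for *Capg*, 705 for *Svil* and 1014 for *Flii*, against 951, 521 and 817. The cause of these changes was not tested. The 5 to 17 knockout reads of *Scin* limit the precision of its fold change.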

Other observations

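Selected after the values were seen, the genes whose level followed *Vill* most closely over the 6 cultures were *Kansl3*, *Zc2hc1c*, *Opa3*, *Pisd* and *Abcc4*. *Zc2hc1c* had 64.8, 87.3 and 65.3 normalized counts in *Nhe6*-knockout cultures and 116, 407 and 80.2 in wildtype cultures, with wildtype replicate 2 the highest. The gene next to *Gsn*, *Stom*, which encodes the membrane protein stomatin, had 8182 normalized counts in wildtype replicate 2 where replicates 1 and 3 had 2668 and 1807, and 3104, 3067 and 2441 in knockout cultures.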
